A study of Homo sapiens with 4 samples.

Results

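The genes described here are 10 well-known targets of the transcription factor p53: CDKN1A, MDM2, CCNG1, BTG2, TP53I3, TP53INP1, FAS, ZMAT3, BBC3 and AEN. They were measured in MDA-MB-361 cells, an established HER2-positive luminal breast cancer line, by every probe set whose platform annotation gave 1 of these symbols and no other gene. A probe set is the group of short oligonucleotides on the array that together report 1 transcript. The rule found 27 probe sets for 8 of the 10 genes, of 54675 probe sets and 19775 named genes in all. BTG2, an antiproliferative gene, had no probe set named with it here, and the 1 probe set of BBC3, which encodes the apoptosis inducer PUMA, was also annotated to other genes, so neither has values below.

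Expression was read on 4 Affymetrix U133 Plus 2.0 arrays. Of these, 3 were of cells that carried the lentiviral vector pLKO-puro with a short hairpin RNA (shRNA) against DCD. DCD is the gene of the secreted peptide dermcidin. The sample labels call these cells clones 1, 2 and 3 and name no hairpin. They are called IBC-I, IBC-II and IBC-III here, a match made by number and assumed throughout. The hairpins differ and target different regions of the transcript, and the cells are called clones in the labels and both clones and pools in the study's text. The other array was of cells that carried the pLKO vector without a DCD hairpin, and all 4 arrays share the parental line and the vector backbone. The comparison asked in which direction each p53 target differed from pLKO when DCD was targeted.

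p53 is a transcription factor that is held at a low level by the ubiquitin ligase MDM2 and accumulates when DNA is damaged or cells are stressed. It binds a DNA element made of a pair of adjoining half-sites and switches on genes that stop the cell cycle, repair DNA, change metabolism or start apoptosis. MDM2 is itself a target, which closes a negative feedback loop, and CDKN1A (p21), an inhibitor of cyclin-dependent kinases, is the target that arrests the cycle.

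Promoter windows from RefSeq (GRCh38.p14) run from 250 bases before a transcript's start to 50 bases after it, and 16 such windows were held for 9 of the 10 genes. The search used the p53 consensus element of 20 bases, 2 half-sites of 10 bases with no spacer, on both strands and with at most 2 mismatches. A match was found in 4 windows of 3 genes, MDM2, FAS and AEN, and in 0.649% of all 35116 windows (228 windows). The matched windows of MDM2 overlap and hold the same element, so the 4 windows are not 4 separate matches. Windows of MDM2 and AEN are shown with the match in capitals, together with that of CDKN1A, in which no match was found and the capitals mark GC boxes (GGGCGG, or its reverse complement CCGCCC). GC boxes occurred in 45.0% of all windows. For FAS the element alone is given. A match says only that the letters are present, and no binding was measured here. The absence of a match speaks only for the bases searched, as an element outside these windows or with more mismatches would be missed.
MDM2 promoter, chr12:68808767-68809066, plus strand: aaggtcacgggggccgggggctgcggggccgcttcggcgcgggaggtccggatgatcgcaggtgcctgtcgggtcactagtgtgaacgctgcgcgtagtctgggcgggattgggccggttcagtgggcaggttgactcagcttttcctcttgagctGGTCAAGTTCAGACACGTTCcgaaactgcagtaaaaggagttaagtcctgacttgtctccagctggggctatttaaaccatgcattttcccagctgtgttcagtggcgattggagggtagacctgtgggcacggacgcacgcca
AEN promoter, chr15:88621090-88621389, plus strand: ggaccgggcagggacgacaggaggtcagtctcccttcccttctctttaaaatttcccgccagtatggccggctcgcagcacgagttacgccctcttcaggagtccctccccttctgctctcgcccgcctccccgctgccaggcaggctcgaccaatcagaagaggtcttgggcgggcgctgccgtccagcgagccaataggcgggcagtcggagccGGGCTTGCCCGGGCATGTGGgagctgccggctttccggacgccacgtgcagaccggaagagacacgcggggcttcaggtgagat
CDKN1A promoter, chr6:36678464-36678763, plus strand: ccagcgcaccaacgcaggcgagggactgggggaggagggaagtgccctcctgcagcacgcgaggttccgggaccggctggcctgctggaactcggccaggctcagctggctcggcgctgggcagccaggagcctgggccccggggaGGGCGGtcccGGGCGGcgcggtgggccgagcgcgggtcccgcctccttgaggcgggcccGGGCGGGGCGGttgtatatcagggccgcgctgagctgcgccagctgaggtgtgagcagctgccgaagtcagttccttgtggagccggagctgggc
FAS element, within chr10:88991181-88991480, plus strand: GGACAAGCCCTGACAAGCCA
The element begins 94 bases before the start of the MDM2 transcript, 34 bases before that of AEN and 122 bases before that of FAS. The genes with a matched element had no common direction: MDM2 had probe sets on both sides of pLKO, AEN differed in direction between the hairpins and FAS was mostly at the floor, as given below.

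The deposited values are linear intensities that were not on a common scale, with array medians of 20.0 for IBC-I, 24.7 for IBC-II, 13.4 for IBC-III and 20.6 for pLKO. They were quantile normalized, which gives all arrays the same distribution of values, then floored at 16, and are called normalized intensities below. The log2 difference of an array is its log2 normalized intensity minus that of pLKO, so a negative value means lower than pLKO. For ACTB the ratio of 3' to 5' control signal, which is high in degraded RNA or after incomplete labelling, was 9.67 for IBC-I, 2.58 for IBC-II, 42.6 for IBC-III and 5.29 for pLKO. IBC-III also had the lowest correlation with pLKO over all probe sets (r = 0.722, against 0.889 for IBC-I and 0.937 for IBC-II), and its part in the results below was not tested. DCD itself lay under the floor on all 4 arrays, with deposited intensities of 7, 6 and 2.7 in IBC-I, IBC-II and IBC-III and 2 in pLKO, so the arrays give no check of the knockdown. All 8 luminal epithelial markers examined passed the filter on low values, from ESR1 with deposited intensities of 113 to 516 up to KRT18 with 6420 to 9776. Of 8 markers of other cell types 5 did not pass it. PECAM1, COL1A1 and ACTA2 did, and COL1A1, at 200 to 254, overlapped ESR1. As these are whole cultures, fewer cells that express a gene and less RNA per cell cannot be told apart.

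Of the 27 probe sets, 12 from 7 genes passed the filter, which kept the 27307 probe sets in the brighter part of the array (mean log2 value not below the median), and 15 did not. CDKN1A and CCNG1 were lower than pLKO under every hairpin, while MDM2, TP53I3, TP53INP1, ZMAT3 and AEN had no common direction by their brightest probe set. Among the 12 probe sets, 4 were lower in all 3 comparisons (CDKN1A, CCNG1, 1 of 3 for MDM2 and 1 of 3 for ZMAT3), where 20.0% of all tested probe sets were. The filter averages pLKO with the shRNA arrays, so a dim probe set passes more easily where pLKO is high. Those of MDM2 and ZMAT3 were dim, with pLKO highest (27.1 and 35.8), and passed this cutoff only with pLKO in the mean. In the other direction 1 of the 12 was higher in all 3 comparisons, a probe set of MDM2, where 19.4% of all tested probe sets were. None reached 3-fold in all 3 comparisons, the study's rule for differential expression, by which 0.179% of the tested probe sets were lower and 0.0366% higher. The 3 comparisons share the pLKO array, so a peculiarity of that array enters all of them.

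No difference passed the test. limma, a linear model with a moderated spread across all tested probe sets, had 2 residual degrees of freedom here, took its spread from the 3 shRNA arrays and assumed that pLKO varies like them. After Benjamini-Hochberg adjustment limma called 0 probe sets (threshold 0.05), and before it 125 lower and 81 higher, of which 0 belonged to the 10 genes. A paired test, which the study's methods list for its experiments in general, was run on the 3 differences from the shared pLKO array and also called 0 after adjustment, with 1076 lower and 1246 higher before it. The limma adjusted p was 1.00 when rounded for each of the 12 probe sets, and an exact permutation of 3 arrays against 1 cannot give a two-sided p below 0.25. The directions below are therefore descriptions of these 4 arrays.

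CDKN1A, the p21 inhibitor of the cell cycle, is read by 1 probe set (202284_s_at). Its normalized intensity was 178 for IBC-I, 175 for IBC-II and 60.6 for IBC-III, against 256 for pLKO. IBC-I and IBC-II were close to each other and IBC-III stood well below both, and pLKO was the highest array. The gene was 1.43-fold lower than pLKO for IBC-I, 1.47-fold lower for IBC-II and 4.22-fold lower for IBC-III. The mean log2 difference was -1.05 ± 0.89 (SD, n = 3 hairpins), with a limma standard error of 0.82 and unadjusted p = 0.234. The size in IBC-II depended on the scaling, being -0.17 on the log2 scale in the intensities as deposited and -0.44 after median centring, while the sign stayed negative in all 3 comparisons under both. With IBC-III left out, the array with the highest ACTB 3' to 5' ratio, the mean log2 difference of CDKN1A was -0.55 over the other hairpins.

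CCNG1 encodes cyclin G1, a p53-induced cyclin that recruits protein phosphatase 2A to MDM2. Its 1 probe set (208796_s_at) had normalized intensities of 117 for IBC-I, 91.3 for IBC-II and 65.9 for IBC-III, against 188 for pLKO. No shRNA array reached the pLKO value, and the 3 arrays were more evenly spaced than for CDKN1A. It was 1.60-fold lower for IBC-I, 2.06-fold lower for IBC-II and 2.85-fold lower for IBC-III, which made it the only one of the 12 tested probe sets that was at least 1.5-fold lower in every comparison. The mean log2 difference was -1.08 ± 0.42 (SD, n = 3 hairpins) with a limma standard error of 0.68 and unadjusted p = 0.153.

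**Figure D1:**
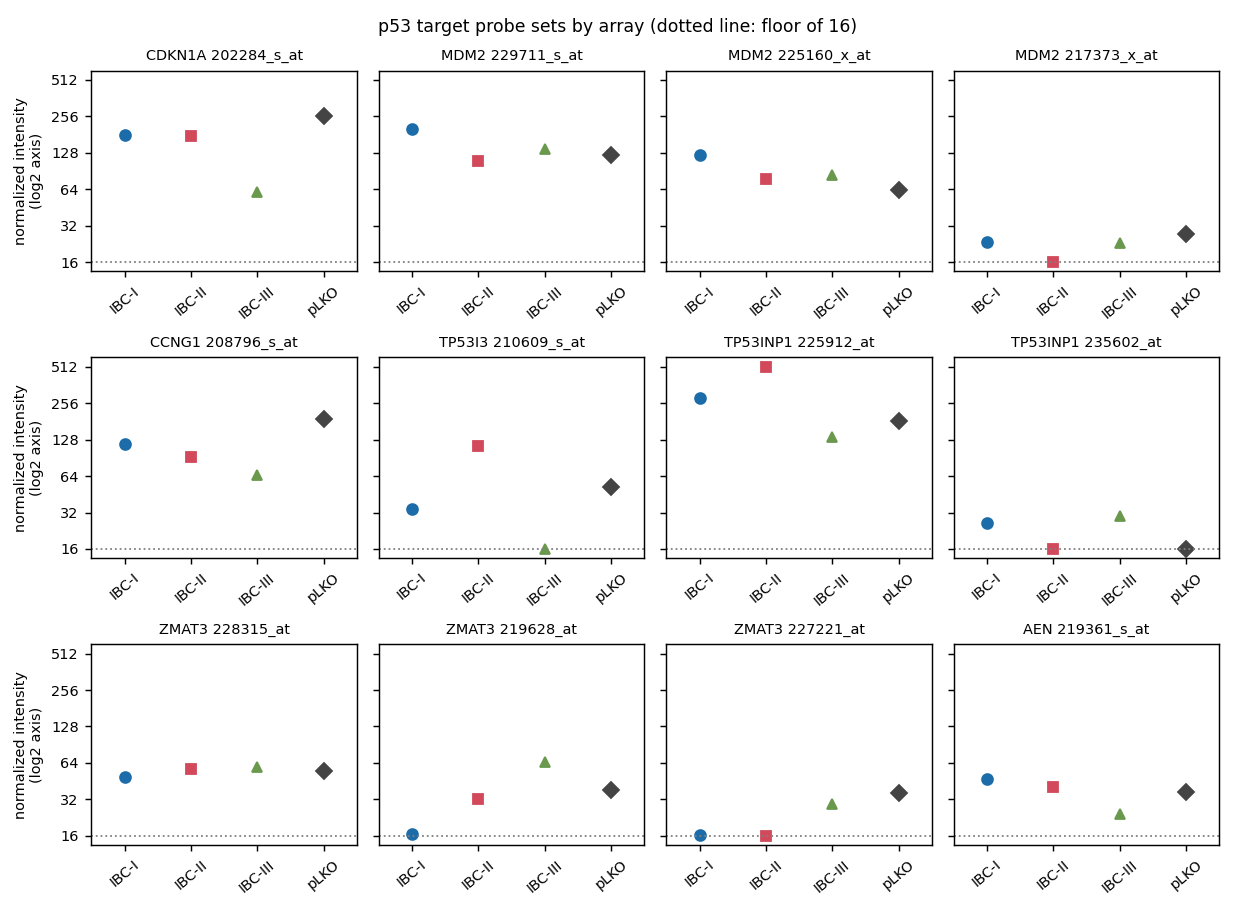
Normalized intensity (log2 axis) of the 12 probe sets of p53 target genes that passed the filter, on the arrays of IBC-I (circle), IBC-II (square), IBC-III (triangle) and pLKO (diamond), 1 array each, with the floor of 16 as a dotted line. CDKN1A and CCNG1 are below pLKO on every shRNA array, whereas TP53I3 and TP53INP1 (225912_at) are highest in IBC-II, at 113 and 513, and low in IBC-III, at the floor and at 135.

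MDM2, the ligase that marks p53 for degradation, has 10 probe sets, of which 3 passed the filter. The brightest (229711_s_at) had 200.0 for IBC-I, 109 for IBC-II and 138 for IBC-III, against 122 for pLKO. Its log2 differences were 0.72, -0.16 and 0.18 in IBC-I, IBC-II and IBC-III, with a limma unadjusted p of 0.730. They depended on the scaling, being 0.20, -0.04 and -0.43 for those arrays with median centring and 0.16, 0.22 and -1.05 as deposited. The second (225160_x_at) had 122 for IBC-I, 77.5 for IBC-II and 84.2 for IBC-III, against 63.1 for pLKO. All shRNA arrays lay above pLKO here, by 1.93-fold, 1.23-fold and 1.33-fold in IBC-I, IBC-II and IBC-III, with a mean log2 difference of 0.55 ± 0.35 (SD, n = 3) and a limma unadjusted p of 0.433. In IBC-III that sign turned to -0.06 with median centring and to -0.68 in the intensities as deposited. Another (217373_x_at) was dim, at 23.3 for IBC-I, the floor of 16 for IBC-II and 22.8 for IBC-III, against 27.1 for pLKO, and pointed the other way. The probe sets of MDM2 thus disagreed in direction, and the suffix _x_at marks sets whose oligonucleotides may also bind other transcripts.

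The other 7 MDM2 probe sets were too dim for the test, with deposited intensities from 1.6 to 31.4. The highest of these values belonged to pLKO on 244616_x_at, which was the floor on all 3 shRNA arrays and 28.7 in pLKO after normalization, at least 1.79-fold lower in each. Of the rest, 2 were at the floor on all arrays (211832_s_at and 237891_at). The filter stood at a mean log2 value of 4.39, with 238733_at of MDM2 just outside it at 4.35 and 235602_at of TP53INP1 just inside it at 4.40.

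**Figure D2:**
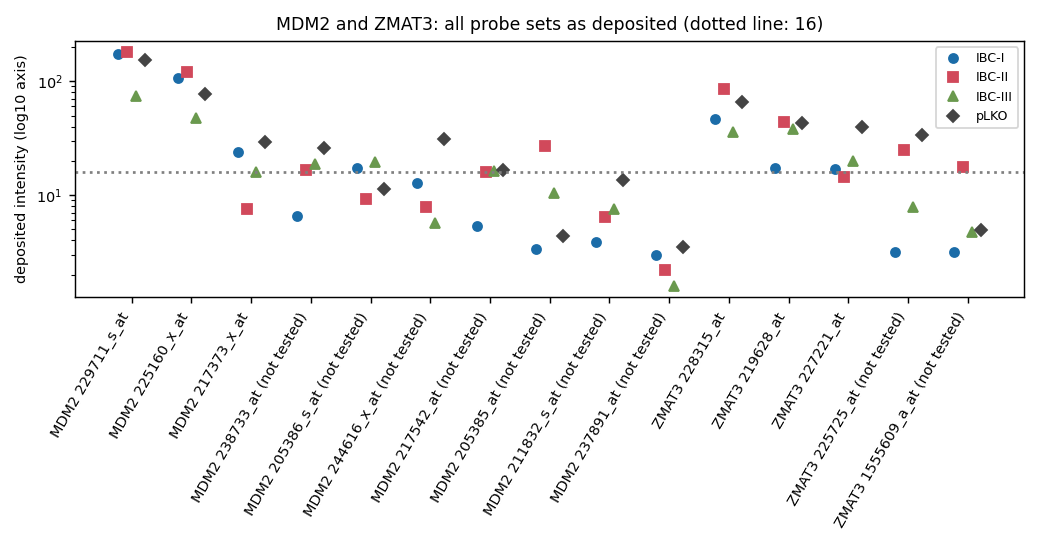
Deposited intensity (log10 axis) of all 10 probe sets of MDM2 and all 5 of ZMAT3 in IBC-I, IBC-II, IBC-III and pLKO, 1 array each, before normalization, with a dotted line at 16. Of these 15 probe sets, 6 passed the filter, and most of the others lie near or below the line, where the order of the arrays changes from probe set to probe set.

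ZMAT3 encodes an RNA-binding zinc finger protein (WIG-1), and 3 of its 5 probe sets passed the filter. The brightest (228315_at) had 49.1 for IBC-I, 57.0 for IBC-II and 59.2 for IBC-III, against 55.1 for pLKO. After quantile normalization these arrays were nearly level, with a mean log2 difference of -0.00 ± 0.14 (SD, n = 3), but as deposited the differences were -0.49, 0.38 and -0.87 in IBC-I, IBC-II and IBC-III. A second (219628_at) had 16.6 for IBC-I, 32.4 for IBC-II and 64.8 for IBC-III, against 38.3 for pLKO, so that the hairpins lay on both sides of pLKO, at -1.20, -0.24 and 0.76 on the log2 scale in IBC-I, IBC-II and IBC-III. The remaining one (227221_at) was lower on every shRNA array, with 16.2 for IBC-I, the floor for IBC-II and 29.5 for IBC-III, against 35.8 for pLKO. Its mean log2 difference was -0.86 ± 0.50 (SD, n = 3; limma unadjusted p = 0.255), and the IBC-II value is a bound, at least 2.24-fold lower. Of the probe sets that did not pass, 225725_at had the floor in IBC-I and IBC-III and 19.3 in IBC-II, against 30.4 in pLKO, and 1555609_a_at was at the floor throughout.

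TP53I3 (PIG3) encodes a quinone oxidoreductase linked to oxidative stress in p53-driven apoptosis. Its 1 probe set (210609_s_at) had normalized intensities of 34.2 for IBC-I, 113 for IBC-II and the floor of 16 for IBC-III, against 52.2 for pLKO. The shRNA arrays lay on both sides of pLKO, and the spread among them (SD 1.42 on the log2 scale) exceeded their mean difference of -0.40. It was 1.53-fold lower for IBC-I, 2.17-fold higher for IBC-II and at least 3.26-fold lower for IBC-III. limma gave an unadjusted p of 0.709.

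TP53INP1, a stress-induced nuclear protein that promotes p53-dependent cell death and autophagy, showed a like split by its bright probe set (225912_at). The values were 281 for IBC-I, 513 for IBC-II and 135 for IBC-III, against 183 for pLKO. IBC-II was the highest of the 4 arrays, 2.80-fold above pLKO, while IBC-III was 1.36-fold lower than pLKO, and limma gave an unadjusted p of 0.531. In IBC-I the log2 difference was 0.62, but 0.07 with median centring and 0.03 as deposited. A dimmer probe set (235602_at) had 26.0 for IBC-I, the floor for IBC-II and 30.1 for IBC-III, against the floor for pLKO. There IBC-II did not stand out, so the 2 probe sets disagreed about which arrays were high. The remaining probe set (244721_at) was at the floor on all arrays.

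AEN, an exonuclease induced by p53 that takes part in DNA fragmentation during apoptosis, had 47.5 for IBC-I, 40.4 for IBC-II and 24.4 for IBC-III, against 36.8 for pLKO, on its 1 probe set (219361_s_at). IBC-I and IBC-II were slightly higher than pLKO and IBC-III was 1.5-fold lower, and the mean log2 difference of -0.03 was smaller than its SD of 0.50 (n = 3; limma unadjusted p = 0.969). FAS, the death receptor, was close to background on all its 5 probe sets, with deposited intensities from 1.7 to 19.4. After normalization 3 of them were at the floor on every array, and none passed the filter. The brightest (204780_s_at) had 16.8 for IBC-I, the floor for IBC-II and 19.8 for IBC-III, against 17.8 for pLKO, all close to the floor.

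**Figure D3:**
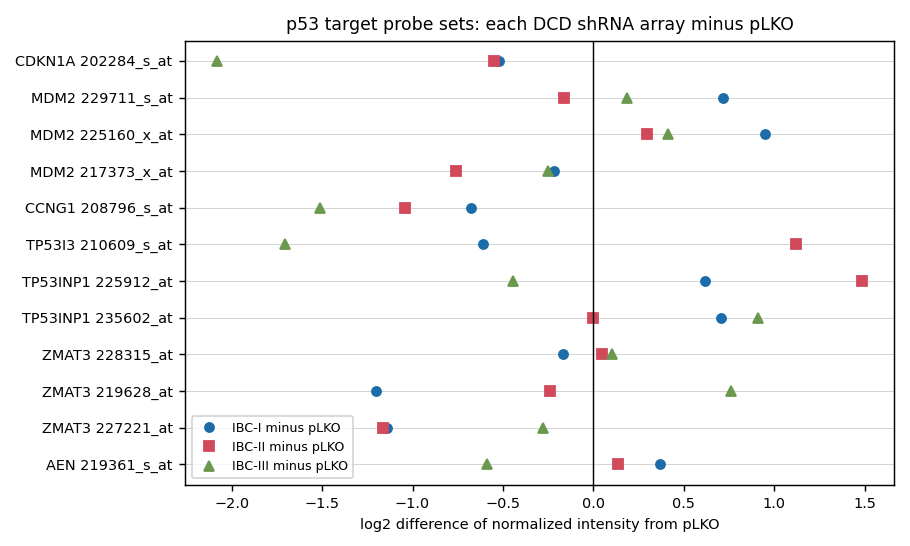
Log2 difference of normalized intensity from pLKO for the 12 tested probe sets of p53 target genes in IBC-I (circle), IBC-II (square) and IBC-III (triangle), with a line at 0 for pLKO. CDKN1A, CCNG1, MDM2 217373_x_at and ZMAT3 227221_at lie left of 0 in all 3 comparisons and MDM2 225160_x_at lies right of it, and the points of the other 7 lie on both sides of 0 or on it.

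Few of the 12 probe sets differed from pLKO by at least 2-fold under any hairpin, too few to compare the hairpins by these counts. In IBC-I, 2 were lower, both of ZMAT3, and 0 higher, where 10.2% of all tested probe sets were lower and 8.38% higher by that size. In IBC-II, 2 were lower (CCNG1 and ZMAT3 227221_at) and 2 higher (TP53I3 and TP53INP1 225912_at), where 4.09% of all were lower and 3.61% higher. In IBC-III, 3 were lower (CDKN1A, CCNG1 and TP53I3) and 0 higher, where 21.3% of all were lower and 19.4% higher. The median log2 difference of the 12 was -0.19 for IBC-I, -0.08 for IBC-II and -0.26 for IBC-III, against 0.00, 0.00 and -0.00 over all tested probe sets. In the intensities as deposited the medians of the 12 were -0.39, 0.17 and -1.03 in IBC-I, IBC-II and IBC-III, against -0.38, 0.36 and -0.91 over all, so the sign in IBC-II depended on the scaling.

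Further p53 targets, from a list of 37 genes of which 32 had a tested probe set, were taken by the brightest tested probe set of each. Of these 8 were lower and 4 higher in all 3 comparisons and 20 neither, where 21.3% of all 12728 tested genes were lower and 18.8% higher. The median log2 difference was -0.09 for IBC-I, -0.01 for IBC-II and -0.16 for IBC-III, against 0.01, 0.00 and -0.11 over all genes, and the IBC-II median was 0.14 with median centring and 0.41 as deposited. GDF15, a stress-induced cytokine, had a deposited intensity of 212 for IBC-I, 223 for IBC-II and 273 for IBC-III, against 4787 for pLKO. After normalization this was the only gene of the list that was at least 3-fold lower under every hairpin, as 0.181% of all tested genes were. limma gave it an unadjusted p of 0.00314, the only one under 0.05 in the list, and an adjusted p of 1.00 when rounded. A second probe set of GDF15 (229868_s_at) was also lower on every shRNA array, at the floor for IBC-I, 26.4 for IBC-II and 64.8 for IBC-III, against 120.0 for pLKO.

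BAX, a pore-forming protein of the mitochondrial outer membrane, was at the floor for IBC-I, 27.3 for IBC-II and 42.5 for IBC-III, against 59.5 for pLKO. Another BAX probe set (211833_s_at) did not pass the filter. It was at the floor for IBC-I and IBC-III but slightly higher than pLKO for IBC-II, at 26.8 against 24.9. SESN2, a stress-induced inhibitor of mTORC1, had log2 differences of -0.63 for IBC-I, -0.44 for IBC-II and -0.64 for IBC-III, and -1.19, -0.05 and -1.87 as deposited. Its other tested probe set (223196_s_at) was also lower under each hairpin. PLK2, a polo-like kinase, had -0.23, -0.61 and -1.47 in IBC-I, IBC-II and IBC-III. Both BAX and PLK2 thus varied between the hairpins, BAX being lowest in IBC-I and PLK2 in IBC-III. On the other side, PERP, a desmosomal membrane protein, had 3037 for IBC-I, 3198 for IBC-II and 3210 for IBC-III, against 2448 for pLKO, by its brightest probe set. Its 3 tested probe sets were all higher on every shRNA array, but in the intensities as deposited the brightest was -0.45 in IBC-I and -1.16 in IBC-III on the log2 scale. CMBL, a hydrolase, had log2 differences of 1.49 for IBC-I, 0.31 for IBC-II and 2.83 for IBC-III by its brightest probe set. Another bright one of its 3 tested probe sets (227522_at) had 0.93, 0.63 and 0.64 for the same arrays, but -0.92 in IBC-III as deposited. The remaining one (230995_at) was dim and had -0.63, 0.62 and -0.27. PHLDA3, an inhibitor of AKT, had 0.39, 0.11 and 0.39 in IBC-I, IBC-II and IBC-III, and SESN1, a sestrin like SESN2, had 0.12, 0.31 and 0.02. In the intensities as deposited, these probe sets of PHLDA3 and SESN1 were lower than pLKO in IBC-I and IBC-III, so their direction depended on the scaling. The other tested probe set of PHLDA3 (235534_at) was higher on all 3 shRNA arrays under each scaling, by 1.01, 0.60 and 1.46 on the log2 scale in IBC-I, IBC-II and IBC-III and by 0.77, 0.98 and 0.53 as deposited.

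**Figure D4:**
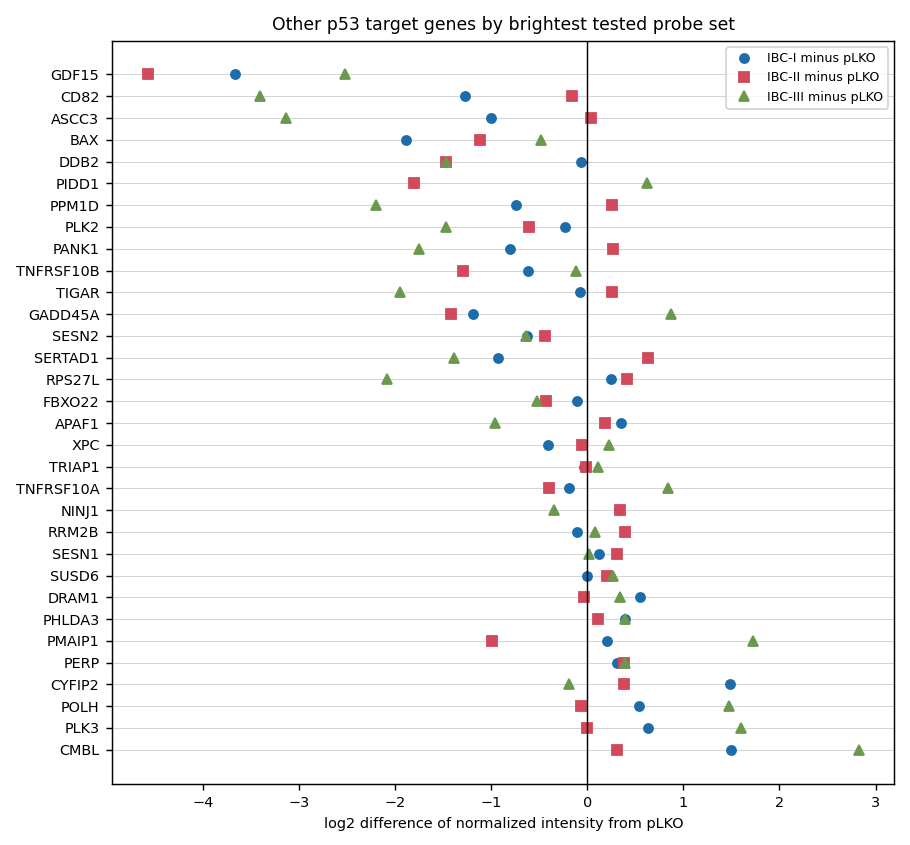
Log2 difference of normalized intensity from pLKO for the 32 other p53 target genes with a tested probe set, by the brightest one, in IBC-I (circle), IBC-II (square) and IBC-III (triangle), ordered from the lowest mean at the top to the highest at the bottom. GDF15 lies between -4.58 and -2.52 under all 3 hairpins. CD82 and ASCC3 reach that range in IBC-III (-3.41 and -3.14) but not in IBC-II (-0.16 and 0.04). Most of the other genes lie on both sides of 0 or near it.

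Among 13 genes of the p53 family and of p53 regulators, 11 were measured and tested. Each was taken by its brightest tested probe set, and their other probe sets are not described here. Of these genes, 1 was lower and 3 higher in all 3 comparisons, where 21.3% of all tested genes were lower and 18.8% higher. None was at least 2-fold different in all 3 comparisons. Their median log2 difference was 0.34 for IBC-I, -0.04 for IBC-II and 0.33 for IBC-III, against 0.01, 0.00 and -0.11 over all genes, and each of these signs turned in the intensities as deposited (-0.22, 0.31 and -0.49). MDM4, the partner of MDM2 in restraining p53, had normalized intensities of 125 for IBC-I, 113 for IBC-II and 378 for IBC-III, against 168 for pLKO, so that after normalization IBC-III was above pLKO and the other hairpins below it. As deposited all 3 lay below pLKO, at -0.99, -0.21 and -0.20 on the log2 scale in IBC-I, IBC-II and IBC-III. CDKN2A, whose alternative product ARF inhibits MDM2, had 169 for IBC-I, 130 for IBC-II and 131 for IBC-III, against 134 for pLKO after normalization, and log2 differences of -0.22, 0.36 and -1.28 in IBC-I, IBC-II and IBC-III as deposited.

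p21 restrains cyclin-dependent kinases and thereby lets the DREAM complex repress genes of cell division. Of 20 such genes 19 were tested, again by the brightest tested probe set only. Of these, 3 were lower (15.8%) and 0 higher in all 3 comparisons, where 21.3% of all tested genes were lower and 18.8% higher. The hairpins differed widely here, with a median log2 difference of 0.36 for IBC-I (4 of 19 lower), -0.44 for IBC-II (17 of 19 lower) and -2.23 for IBC-III (19 of 19 lower), where 48.5%, 49.2% and 53.8% of all tested genes were lower in IBC-I, IBC-II and IBC-III. The IBC-I median turned to -0.16 with median centring and to -0.20 in the intensities as deposited. Many of these genes were at the floor in IBC-III, among them MYBL2, whose difference of -2.23 is the median, so that median is a bound. CDK1, the mitotic kinase, had 262 for IBC-I, 110 for IBC-II and the floor for IBC-III, against 209 for pLKO. CCNB1, its cyclin partner, had 140 for IBC-I, 82.5 for IBC-II and the floor for IBC-III, against 137 for pLKO, and the proliferation marker MKI67 had 131, 60.4 and the floor in IBC-I, IBC-II and IBC-III, against 73.4 in pLKO. IBC-III, where CDKN1A was lowest, was thus also the array with the lowest median of these genes, and the one with the highest ACTB and GAPDH 3' to 5' ratios (42.6 and 13.1), whose part in these values was not tested.

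The genes whose pattern over the 4 arrays was nearest to that of CDKN1A, by the Euclidean distance between mean-centred log2 values among 12727 other genes, were CETN3 (0.05), a centrin of the centrosome, E2F2 (0.09), a transcription factor of the cell cycle, and NIF3L1 (0.10). CETN3 had 73.6 for IBC-I, 75.7 for IBC-II and 25.8 for IBC-III, against 108 for pLKO. E2F2 had 82.2, 81.1 and 28.1 in IBC-I, IBC-II and IBC-III, against 111 in pLKO. Each repeated the shape of CDKN1A, with IBC-I and IBC-II nearly equal and IBC-III lowest, and over so few arrays many genes can have such a shape.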

How the data were processed

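Total RNA of MDA-MB-361 cells was prepared with Trizol and labelled by the standard Affymetrix procedure. The authors deposited a single linear intensity for each probe set on each array. dChip is named in the study's methods, but which program made the deposited table was not given in the sources used here. Intensities of 0 were set to 0.1 and log2 values were quantile normalized with limma 3.58.1 (R 4.3.3). After 62 control probe sets were left out, values under 16 were set to 16, and the 27307 probe sets whose mean was not below the median were tested. Scale was thus set here, not by the authors, and normalization forces equal distributions on arrays of unequal quality. Probe sets were named from the platform annotation (41091 with a single gene, 1801 with several, 11721 unnamed here), with symbols updated by gene identifier for 41037. Each shDCD array was set against the pLKO array. The shDCD arrays carry different hairpins, so their spread mixes hairpin and technical differences. limma was fitted with Benjamini-Hochberg adjustment. On simulated data of 27307 probe sets it recovered 100% of 200 probe sets changed by 2 on the log2 scale at an SD of 0.1, and 0% at an SD of 1. For arrays, depth is signal over background: deposited values under 16 made up 43.9% of IBC-I, 39.3% of IBC-II, 55.1% of IBC-III and 43.4% of pLKO, and the number of arrays limits the precision. Named genes were all 10 targets, up to 4 lower and 4 higher further targets with the largest smallest difference, MDM4, CDKN2A, regulators at least 2-fold different throughout, CCNB1, CDK1, MKI67 and the 3 genes nearest CDKN1A. Listed genes without a probe set of their own were not analysed here. Members and lists were chosen with earlier results of these data known. Alternatives were other scalings, floors, filters, fold rules, limma settings and probe set classes, a paired test and leaving out each shDCD array. Sequences are from RefSeq (GRCh38.p14), and figures were drawn with matplotlib 3.10.9.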

Additional observations from a re-analysis of the deposited data

Results flagged for a closer look

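The control probe sets, which enter no comparison of the p53 targets, gave 3' to 5' ratios above those of pLKO on 2 of the 3 shRNA arrays. The ratio of ACTB was 9.67 in IBC-I and 42.6 in IBC-III, against 5.29 in pLKO. The ratio of GAPDH was 2.18 in IBC-I and 13.1 in IBC-III, against 1.09 in pLKO. IBC-II lay below pLKO in both, at 2.58 for ACTB and 1.02 for GAPDH.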

How the results depend on the processing

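No paired analysis was possible because pLKO has 1 array and the groups share fewer than 2 replicate numbers. The paired test among the alternatives sets each shRNA array against that same pLKO array and pairs no replicates. CDKN1A and CCNG1 kept a negative mean log2 difference under all 10 settings, from -1.5 to -0.55 for CDKN1A and from -1.53 to -0.89 for CCNG1. Some of these settings could not move it, as each gene has 1 probe set, well above the lower floor. The other filters, a floor of 1 and the mean over probe sets left it at -1.05 for CDKN1A and -1.08 for CCNG1. For TP53INP1 the other filters and both other floors left it at 0.55. TP53INP1 stayed positive, from 0.09 to 1.07, while MDM2 (-0.22 to 0.44), TP53I3 (-1.05 to 0.27), ZMAT3 (-0.39 to 0.08) and AEN (-0.24 to 0.27) took both signs. Of the target probe sets, 4 were lower in all 3 comparisons, but 2 with a floor of 64, 7 with no filter, 2 with an upper quartile filter and 1 (CCNG1) at 1.5-fold or more. Without probe sets named _x_at or _s_at it was 1, the dim ZMAT3 227221_at, as that rule takes out those of CDKN1A and CCNG1. The 1 that was higher became 0 with median centring, 0 as deposited and 0 at 1.5-fold or more. It was also 0 without _x_at and _s_at probe sets, a rule that takes out that probe set itself. Leaving out an array gave 5 to 6 lower and 2 to 3 higher in the other comparisons, where fewer comparisons have to share a sign. Of the other p53 targets 8 were lower, but 6 with a floor of 1, a floor of 64 or an upper quartile filter. This count was 10 as deposited and 8 to 13 with an array left out. The 4 higher became 1 with median centring, 2 as deposited, 5 with a floor of 1 and 6 to 9 with an array left out. The 49 probe sets at least 3-fold lower became 90 with median centring, 96 as deposited, 22 with a floor of 64, 19 with an upper quartile filter, 210 at 2-fold and 95 to 274 with an array left out, and 34 with a floor of 1. The 10 higher became 246 with a floor of 1, 3 with a floor of 64, 173 at 2-fold and 34 to 142 with an array left out. limma's 0 calls became 389 lower and 4 higher with a floor of 64, and 1308 lower and 18 higher with no filter. Of these 393 and 1326 calls, 363 and 1221 were probe sets with equal values on all shRNA arrays, which have no spread; with no filter they included MDM2 244616_x_at and FAS 233820_at. The median log2 difference of tested probe sets was -0.33 for IBC-I, 0.08 for IBC-II and -0.36 for IBC-III with median centring, and -0.38, 0.36 and -0.91 as deposited, where 68.5%, 26.6% and 79.6% were lower, against 49.0%, 47.7% and 50.1% after quantile normalization. Signal limits FAS, most MDM2 probe sets and every value at the floor, which are bounds.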
